A study of Mus musculus with 8 samples.

Results

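The 34 genes described here encode the glucose transporters, the enzymes of glycolysis, the lactate and pyruvate-handling steps that follow it, and the enzymes of the pentose phosphate pathway. They were chosen by gene symbol from a table of 24213 genes, and all 34 were found. Where a symbol had several features (probe sets), the feature with the highest mean over 8 arrays was used, which concerned 7 of the 34 genes. Transcripts were measured on Affymetrix Gene ST arrays in cells sorted as hematopoietic stem cells (HSCs) from the bone marrow of C57BL/6 mice. Controls were mice with loxP-flanked Atg12 alleles (Atg12flox/flox), and knockouts were mice with the same alleles and an Mx1-Cre transgene. Each group had 4 arrays, and each array was taken as 1 mouse. The Mx1 promoter responds to interferon in many cell types, so deletion was not restricted to HSCs. Both groups received poly(I:C), which induces interferon, when 4 weeks old. HSCs were sorted 2 to 3 months after that, at an age of 3 to 4 months. The gate kept lineage-negative cells with c-Kit, Sca-1 and CD150 and without Flk2 and CD48. Cre was present in the knockout group alone, so Cre and Atg12 loss cannot be told apart.

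Glycolysis splits glucose into pyruvate and yields ATP without oxygen, and the pentose phosphate pathway diverts glucose 6-phosphate to make NADPH and ribose phosphate. HSCs in adult marrow are known to rely on glycolysis while quiescent, with pyruvate kept from mitochondria by pyruvate dehydrogenase kinases under the hypoxia factor HIF-1. Autophagy removes mitochondria and other cell contents and depends on Atg12, so the comparison asked whether its loss altered the transcripts of glucose use.

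Many glycolytic genes carry a short motif bound by HIF-1, ACGTG, near their start. Other forms of that motif were not searched. Windows of 300 bases, from 250 before to 50 after the start, were taken from RefSeq (GRCm38.p6), and 32 of the 34 genes had 1 or more windows. The motif, read on both strands, occurred in 21 of 45 windows of these genes (46.7%), against 19.6% of 32851 windows of all genes, without matching on base composition. The longer E-box CACGTG, which contains ACGTG on each strand, occurred in 5 of the 45 windows (11.1%), against 7.15% of all windows. A match is a run of letters and not a measured site. Windows are shown for the aldolase genes Aldoc and Aldoa, whose ratio differed most between groups among the isoform pairs, and for Pgk1 and Ldha, which were among the genes highest on knockout 3. They were chosen after the values were seen. Capitals mark ACGTG or its reverse complement.
Aldoc, chr11:78322823-78323122, plus strand: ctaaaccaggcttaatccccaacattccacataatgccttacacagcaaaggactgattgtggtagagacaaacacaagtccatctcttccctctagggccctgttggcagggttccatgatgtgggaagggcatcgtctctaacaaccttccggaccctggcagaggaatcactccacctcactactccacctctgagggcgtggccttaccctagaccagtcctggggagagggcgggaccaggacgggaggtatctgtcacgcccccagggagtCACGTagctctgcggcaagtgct
Aldoa, chr7:126799205-126799504, minus strand: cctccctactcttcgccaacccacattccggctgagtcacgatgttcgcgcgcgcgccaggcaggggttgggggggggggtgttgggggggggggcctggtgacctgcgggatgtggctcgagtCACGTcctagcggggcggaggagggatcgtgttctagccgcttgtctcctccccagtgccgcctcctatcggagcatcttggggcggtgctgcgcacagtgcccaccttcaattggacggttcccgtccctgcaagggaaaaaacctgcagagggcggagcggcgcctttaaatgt
Pgk1, chrX:106186850-106187149, plus strand: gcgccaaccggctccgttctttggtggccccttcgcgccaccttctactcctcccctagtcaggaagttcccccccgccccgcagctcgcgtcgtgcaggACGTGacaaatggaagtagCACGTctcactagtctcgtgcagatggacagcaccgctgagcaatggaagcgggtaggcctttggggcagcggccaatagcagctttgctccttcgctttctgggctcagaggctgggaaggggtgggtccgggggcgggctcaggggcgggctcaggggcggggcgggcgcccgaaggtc
Ldha, chr7:46845554-46845853, plus strand: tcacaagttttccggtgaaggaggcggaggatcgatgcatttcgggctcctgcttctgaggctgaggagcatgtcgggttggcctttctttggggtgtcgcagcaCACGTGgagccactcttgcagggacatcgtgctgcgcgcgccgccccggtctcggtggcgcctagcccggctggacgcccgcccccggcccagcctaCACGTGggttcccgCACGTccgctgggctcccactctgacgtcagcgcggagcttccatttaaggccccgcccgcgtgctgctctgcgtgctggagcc
The Aldoc, Aldoa and Pgk1 windows held no E-box, and the Ldha window held 2. RefSeq lists 3 starts for Aldoa and 2 each for Aldoc and Ldha, and the window with a match is shown (for Aldoa, 1 of 2 such windows, which overlap).

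Atg12 was checked first. Its log2 signal was 6.41, 6.37, 6.55 and 6.42 in controls 1 to 4 and 5.66, 5.45, 5.35 and 5.56 in knockouts 1 to 4. Atg12 fell by 0.93 on the log2 scale (SE 0.10) and was the 1 gene of 24213 past an adjusted p of 0.05 (limma, adjusted p = 0.031). That count was 0 when any of 7 single arrays was left out and 3 without control 4. The probed part of the gene relative to the deletion was not given in the sources used here. A level for absent transcripts, 3.20, was set by the highest signal of Xist or of Y-linked genes on arrays that lacked them. Of the genes of the sort markers, Kit read 8.36 to 8.70 and Ly6a (Sca-1) 3.55 to 5.02 (4.01 in controls and 4.66 in knockouts on average), while Slamf1 (CD150) lay below that level on all 8 arrays. The genes of both proteins that the gate excluded lay above it on all 8 arrays, with Cd48 at 8.53 to 8.69 and Flt3 (Flk2) at 4.78 to 5.61. The cells are called HSCs below as labelled. Array medians lay between 3.76 and 3.92 over all features, and knockout 3 stood apart on the first principal component (39.5, against -14.8 to 12.2 on the other arrays). Xist was high on control 4 and knockouts 1 and 2, Y-linked genes on controls 1 to 3 and knockout 3, and both on knockout 4. Knockout 4 was used as labelled, and whether it held RNA of more than 1 mouse was not tested.

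No glycolytic or pentose phosphate gene passed the test over all genes. By limma, 0 of 34 were called at an adjusted p under 0.05, against 0.00413% of all genes, and the smallest adjusted p among them was 0.880, for Aldoc. At an unadjusted p under 0.05 there were 3 of 34, against 4.94% of all genes. Of these, Aldoc and Slc2a3 were lower in knockouts, as were 2.50% of all genes, and Eno2 was higher, as were 2.43%. Aldoc and Eno2 did not exceed the level of absent transcripts on all arrays. Among the 32 members that did, 1 had an unadjusted limma p under 0.05 (3.1%), against 4.70% of all such genes. The groups did not overlap for 2 of 34, against 2.90% of all genes. Aldoc was the lower of these (1.54% of all genes) and Eno1b the higher (1.36%). Limma with trended, robust or array-weighted variance also called 0 of the 34.

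The differences were small as well as uncalled. The median log2 difference of the 34 genes, knockout minus control, was 0.01, and that of all 24213 genes was 0.0017. The median size of the difference, without regard to sign, was 0.09 for the 34 and 0.09 for all genes. Of the 34, 19 had a difference above 0 and 15 below, where 50.6% of all genes were above 0. For 29 of the 34 genes the 95% interval of the difference lay inside -0.5 to 0.5, which is 0.707- to 1.41-fold, and for 13 it lay inside -0.3 to 0.3. These intervals are per gene, without adjustment. On all 8 arrays 32 of the 34 genes exceeded the level of absent transcripts, all but Aldoc and Eno2. Signals of separate probe sets share no scale, so genes are not ranked by them. Bulk signal cannot tell fewer cells of a type from less RNA per cell.

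**Figure D1:**
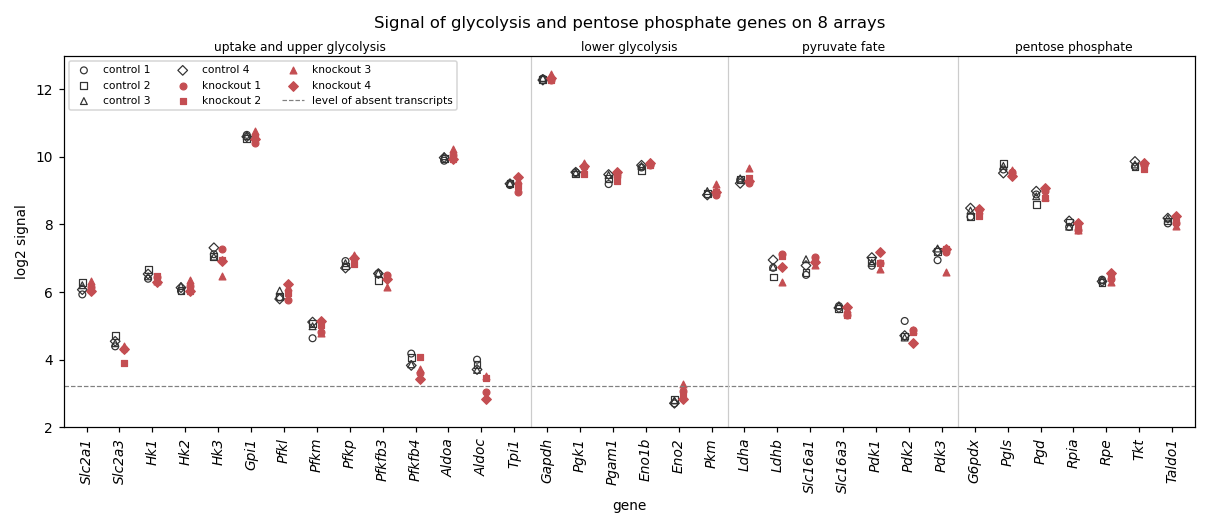
Log2 signal (vertical axis) of the 34 genes (horizontal axis, grouped by part of the pathway) on each of 8 arrays. Open symbols are controls, filled symbols knockouts, and the dashed line is the level of absent transcripts at 3.20. Aldoc straddles the line in knockouts, Eno2 lies below it on every array except knockout 3, and the groups overlap for 32 of the 34 genes.

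**Figure D2:**
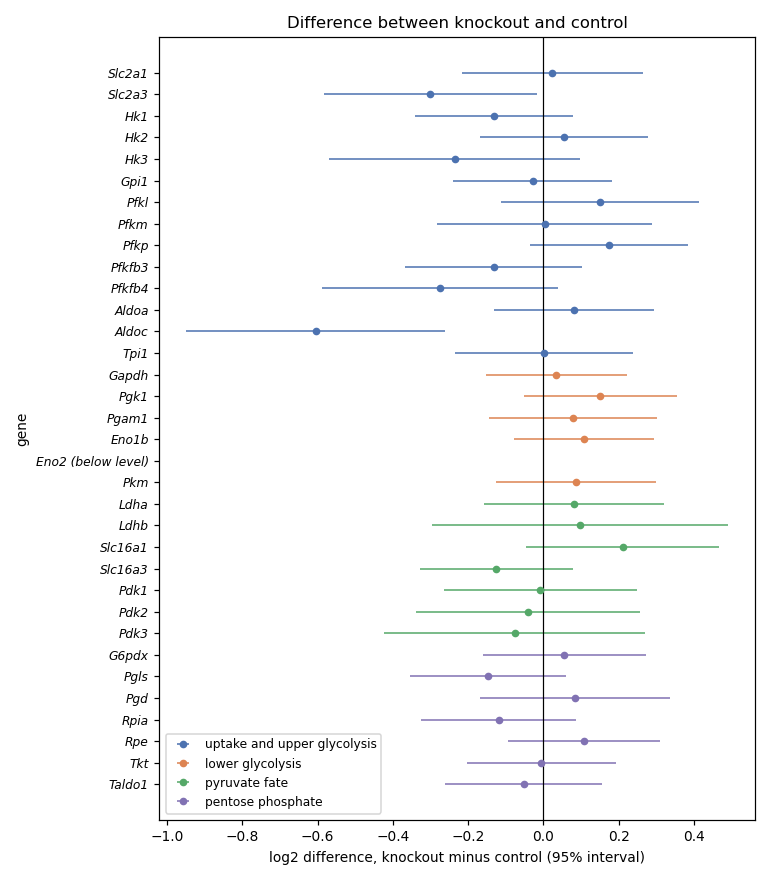
Log2 difference between knockout and control means (points) with 95% intervals from the fit over all genes (bars), for 33 genes. Eno2 is listed without a value because no control array exceeded the level of absent transcripts. The interval leaves out 0 for Aldoc and Slc2a3 alone among those drawn.

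Glucose enters blood cells through Slc2a1 (GLUT1) and Slc2a3 (GLUT3), a high-affinity transporter. Slc2a3 read 4.39, 4.72, 4.49 and 4.54 in controls 1 to 4 and 4.30, 3.89, 4.42 and 4.32 in knockouts 1 to 4. Knockout 2 was the lowest array, and knockout 3 overlapped the controls. The difference was -0.30 (95% interval -0.58 to -0.02; limma adjusted p = 1.00), and -0.19 without knockout 2, more than 1.5 times smaller. Slc2a1 differed by 0.02, with an interval of -0.22 to 0.26.

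Hexokinases trap glucose in the cell as glucose 6-phosphate. Hk1, the housekeeping form, differed by -0.13 (interval -0.34 to 0.08) and Hk2, the inducible form, by 0.05 (-0.17 to 0.28). Hk3, the form enriched in myeloid cells, differed by -0.24 (-0.57 to 0.10). Hk3 was lowest on knockout 3, at 6.47, while the other knockouts read 6.91 to 7.26 and the controls 7.05 to 7.31. Without knockout 3 its difference was -0.09. Gpi1, the isomerase that makes fructose 6-phosphate, differed by -0.03 (-0.24 to 0.18), and its second feature by -0.08.

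Phosphofructokinase commits sugar to glycolysis and exists as liver (Pfkl), muscle (Pfkm) and platelet (Pfkp) forms. Pfkp read 6.92, 6.77, 6.86 and 6.71 in controls 1 to 4 and 7.02, 6.83, 7.10 and 6.998 in knockouts 1 to 4. Of the knockouts, 3 lay above every control, and knockout 2 lay among them. The Pfkp difference was 0.17 (interval -0.04 to 0.38; limma adjusted p = 1.00). Pfkl differed by 0.15 (-0.11 to 0.41) and was highest on knockouts 3 and 4, at 6.16 and 6.25, and without both its difference was -0.02. Pfkm differed by 0.003, with an interval of -0.28 to 0.29.

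Pfkfb3 and Pfkfb4 make and degrade fructose 2,6-bisphosphate, the activator of phosphofructokinase. Pfkfb4 read 4.18, 4.07, 3.86 and 3.83 in controls 1 to 4 and 3.60, 4.07, 3.72 and 3.44 in knockouts 1 to 4. Knockout 2 lay among the controls, and the other 3 knockouts lay below all of them. The Pfkfb4 difference was -0.28 (interval -0.59 to 0.04; limma adjusted p = 1.00). Pfkfb3 differed by -0.13 (-0.37 to 0.10) and was lowest on knockout 3, at 6.14, and it differed by -0.06 without that array.

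Aldolase cleaves fructose 1,6-bisphosphate, with Aldoa the general form and Aldoc the form first described in brain. Aldoc read 3.998, 3.86, 3.70 and 3.71 in controls 1 to 4 and 3.04, 3.45, 3.52 and 2.83 in knockouts 1 to 4. Every knockout lay below every control. Of the 4 knockout arrays, 2 were above the level of absent transcripts, as were all 4 controls, so the size of the difference is limited by that level. It was -0.60 (SE 0.16; limma adjusted p = 0.880; 57th of 24213 genes by p), and -0.71 to -0.48 when any single array was left out. Aldoa read 9.89 to 10.02 in controls and 9.94 to 10.23 in knockouts, a difference of 0.08 (-0.13 to 0.30). Tpi1, which interconverts the triose phosphates, differed by 0.001 (-0.24 to 0.24). Its controls lay within 9.17 to 9.23, while the knockouts spread from 8.96 on knockout 1 to 9.40 on knockout 4.

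Lower glycolysis, from glyceraldehyde 3-phosphate to pyruvate, was represented by 6 genes, of which 5 exceeded the level of absent transcripts by their mean, all but Eno2. These 5 had a difference above 0 with all arrays and a median difference of 0.09, and 0 of them passed the test. Without knockout 3 the median was 0.07 and Gapdh turned to -0.01. Pgk1, the first ATP-yielding kinase, read 9.54, 9.49, 9.54 and 9.55 in controls 1 to 4 and 9.69, 9.50, 9.80 and 9.72 in knockouts 1 to 4. The controls were tightly grouped, 3 knockouts lay above them, and knockout 2 lay among them. The Pgk1 difference was 0.15 (interval -0.05 to 0.35; limma adjusted p = 1.00), and 0.15 for each of its 3 features. Gapdh, often used as a reference gene, differed by 0.03 (-0.15 to 0.22). The table held 40 features named Gapdh, with mean signals of 10.16 to 12.32 and differences of -0.04 to 0.06. Which of them read copies of the gene was not tested, nor was it for the features of Pgk1 and Pkm.

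Enolase makes phosphoenolpyruvate. No feature of the table carried the symbol Eno1, the general form, and 3 carried Eno1b, a retrotransposed copy of it, and whether its probes also read Eno1 was not tested. The feature used read 9.69, 9.60, 9.73 and 9.75 in controls 1 to 4 and 9.77, 9.76, 9.86 and 9.82 in knockouts 1 to 4. The groups did not overlap, with the lowest knockout and the highest control nearly equal. Its difference was 0.11 (interval -0.08 to 0.29; limma adjusted p = 1.00), whereas the 3 features ranged from -0.01 to 0.11. Eno2, the neuronal form, exceeded the level of absent transcripts on 1 of 4 knockout arrays (3.29 on knockout 3) and on 0 of 4 control arrays, so no difference is given for it. Pgam1, phosphoglycerate mutase, differed by 0.08 (-0.14 to 0.30). Pkm, pyruvate kinase, differed by 0.09 (-0.12 to 0.30), and by 0.02 without knockout 3, where it was highest at 9.20.

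Pyruvate is reduced to lactate by lactate dehydrogenase, exported by monocarboxylate transporters, or passed to mitochondria unless a Pdk kinase blocks pyruvate dehydrogenase. Of these 7 genes, 3 had a difference above 0 and 4 below, with a median of -0.01. Slc16a1 (MCT1), a proton-linked lactate carrier, read 6.51, 6.58, 6.97 and 6.78 in controls 1 to 4 and 7.03, 6.97, 6.81 and 6.88 in knockouts 1 to 4. The controls spanned more than the knockouts, which lay in or just above the upper part of the control range. The difference was 0.21 (interval -0.05 to 0.47; limma adjusted p = 1.00). Slc16a3 (MCT4), the lactate exporter of glycolytic cells, differed by -0.13 (-0.33 to 0.08). Ldha, which favours lactate formation, differed by 0.08 (-0.16 to 0.32) and was highest on knockout 3, at 9.67, and without that array it differed by -0.01. Ldhb, which favours pyruvate formation, was lowest on the same array, at 6.31, and read 6.75 to 7.13 on the other knockouts. Its difference was 0.10 (-0.30 to 0.49) with knockout 3 and 0.27 without it, more than 1.5 times larger.

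The pyruvate dehydrogenase kinases, which HSCs are known to need for a glycolytic state, differed by less than 0.1 in either direction. Pdk1, the HIF-1 target, differed by -0.01 (interval -0.26 to 0.25), Pdk2 by -0.04 (-0.34 to 0.26) and Pdk3 by -0.08 (-0.42 to 0.27). Pdk1 ranged from 6.68 on knockout 3 to 7.17 on knockout 4, both of them knockouts. Pdk4, the starvation-induced form, lay below the level of absent transcripts on all 8 arrays.

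The pentose phosphate genes were close between groups. All 7 differed by less than 0.2 in either direction, 3 above 0 and 4 below, with a median of -0.01. Of the oxidative steps, which yield NADPH, G6pdx differed by 0.06 (interval -0.16 to 0.27), the lactonase gene Pgls by -0.15 (-0.36 to 0.06) and Pgd by 0.09 (-0.17 to 0.34). Of the non-oxidative steps, Rpia, which makes ribose 5-phosphate, differed by -0.12 (-0.32 to 0.09) and the epimerase gene Rpe by 0.11 (-0.09 to 0.31). Transketolase (Tkt) and transaldolase (Taldo1), which return pentoses to glycolysis, differed by -0.01 (-0.20 to 0.19) and -0.05 (-0.26 to 0.16). The median spread within groups (SD on the log2 scale) was 0.10 for these 7 genes and for the 6 of lower glycolysis, 0.14 for the 14 of uptake and upper glycolysis, and 0.16 for the 7 of pyruvate handling.

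Isoforms of a step can replace each other while the total stays level, so the log2 ratio of 2 isoforms was compared between groups for all 15 pairs within a step. A ratio of probe sets shows unequal change and not relative abundance. No pair passed after adjustment over the 15 pairs, and the smallest adjusted p was 0.429 (two-sided exact permutation test over 70 assignments). An exact p of 0.0286 is the smallest that 4 against 4 arrays allow, so a pair could pass only if most pairs reached it. The Aldoa to Aldoc log2 ratio was 5.89 to 6.32 in controls and 6.48 to 7.11 in knockouts, higher in all 4 knockouts, a difference of 0.69 (SE 0.17; exact p = 0.0286), and it rests on the low Aldoc signal. The Slc2a1 to Slc2a3 ratio differed by 0.32 (SE 0.11; exact p = 0.0571) and the Slc16a1 to Slc16a3 ratio by 0.34 (SE 0.14; exact p = 0.0857), and both overlapped between groups. The other 12 pairs, 1 of them with Eno2 near the level of absent transcripts, differed by -0.19 to 0.29. The Ldha to Ldhb ratio differed by -0.02 (SE 0.30), its knockouts spreading from 2.10 on knockout 1 to 3.36 on knockout 3, and by -0.28 without knockout 3. The Hk2 to Hk3 ratio differed by 0.29, and by 0.08 without that array.

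**Figure D3:**
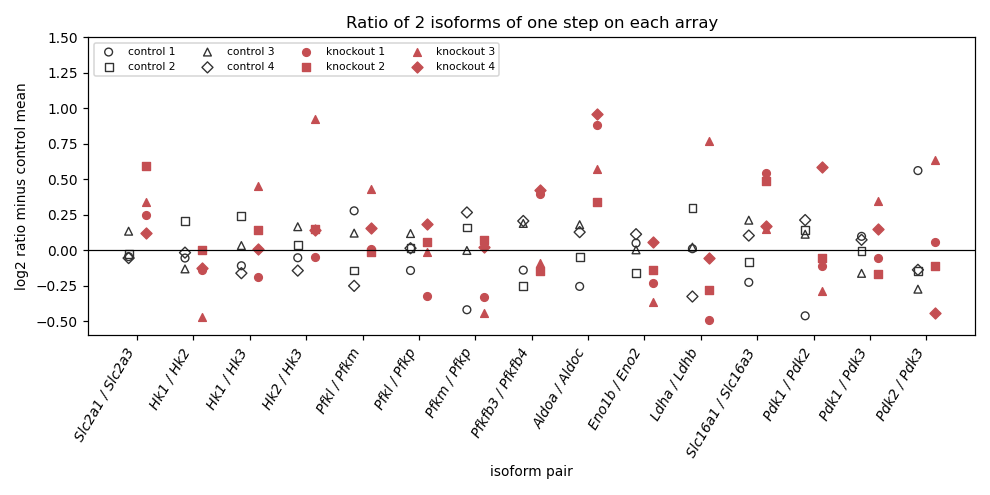
Log2 ratio of 2 isoforms on each array minus the control mean of that ratio (vertical axis), for 15 isoform pairs (horizontal axis). Open symbols are controls and filled symbols knockouts, with a shape per replicate number. The Aldoa to Aldoc pair is the only pair of the 15 without overlap between groups, and knockout 3 lies far from the other knockouts for Ldha to Ldhb and Hk2 to Hk3.

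Knockouts 3 and 4 held the highest value of most of these genes. Among the 32 genes above the level of absent transcripts on all arrays, knockout 3 was the highest array for 10 (31.2%) and the lowest for 6. Over 13195 genes above that level on all arrays, it was the highest for 17.0% and the lowest for 28.9%. The 10 were Slc2a1, Hk2, Gpi1, Pfkp, Aldoa, Gapdh, Pgk1, Eno1b, Pkm and Ldha, and the 6 were Hk3, Pfkfb3, Ldhb, Pdk1, Pdk3 and Taldo1. Knockout 4 was the highest array for 9 genes (28.1%), against 12.1% of all genes, and the lowest for 5 (15.6%), against 7.60%. The 9 were Pfkl, Pfkm, Tpi1, Pgam1, Pdk1, Pdk3, Pgd, Rpe and Taldo1, and the 5 were Hk1, Hk2, Pfkfb4, Pdk2 and Pgls. Without knockout 3, the median difference of the 34 genes was -0.01, against 0.01 with it.

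**Figure D4:**
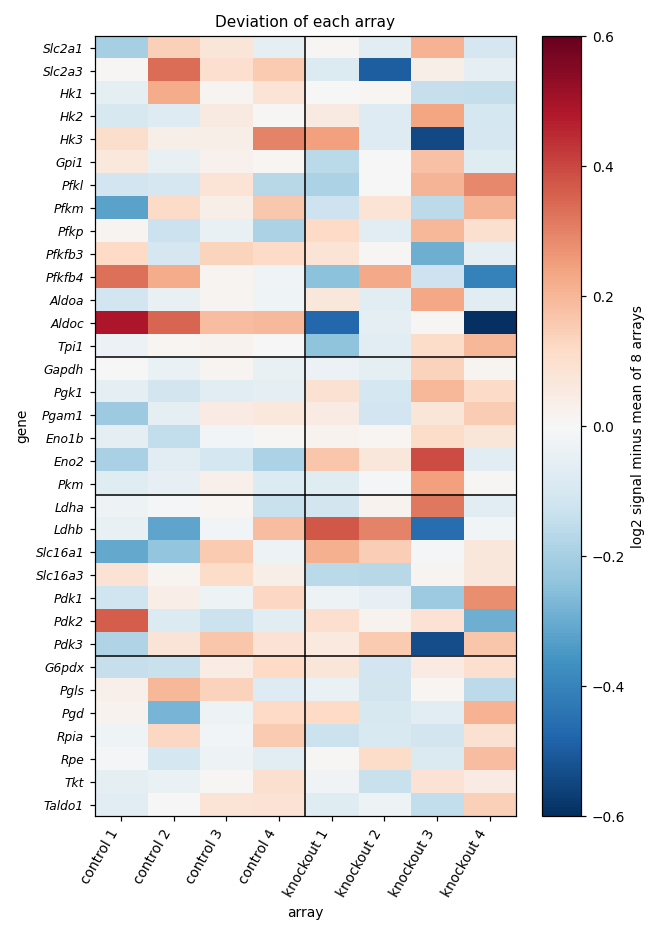
Log2 signal of each gene (rows) on each array (columns) minus that gene's mean over 8 arrays; the colour scale stops at -0.6 and 0.6. Black lines separate controls from knockouts and the 4 parts of the pathway. Knockout 3 is red for Ldha, Eno2, Pkm and Aldoa and blue for Hk3, Pdk3 and Ldhb, and Aldoc is red in every control.

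Sex-linked signal differed between the groups, and differences within each kind of array are given for the genes described by array. Among arrays with Y-linked signal alone (3 controls and knockout 3) and with Xist alone (control 4 and 2 knockouts), Aldoc differed by -0.33 and -0.46. Slc2a3 differed by -0.11 and -0.45, Pfkp by 0.25 and 0.22, and Slc16a1 by 0.12 and 0.21. For Pgk1, an X-linked gene whose feature was not traced to that locus, the values were 0.28 and 0.05, and for Pfkfb4 they were -0.32 and 0.01. Eno1b differed by 0.19 and 0.01, so that it was nearly level among arrays with Xist alone. The other X-linked genes of the 34 are G6pdx (0.13 and -0.14) and Pdk3 (-0.55 and 0.02). Each comparison rests on a single array on one side, and the part of sex in these differences was not tested.

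Genes around the pathway were read from 5 further lists, and 0 genes of any of them passed the test by limma in either direction. At an unadjusted p under 0.05 by limma there were 3, namely Pdp2 of 11 genes measured in its list, Gbe1 of 19 and Ankrd37 of 15. The lists with 28 and 20 measured genes held 0. All 3 were lower in knockout, against 2.50% of all genes lower and 4.94% in either direction. Among 28 other isoforms and transporters the median difference was 0.06, and 16 of the 28 exceeded the level of absent transcripts by their mean. Shpk, sedoheptulokinase, read 3.41 in controls and 3.21 in knockouts, where 1 of 4 arrays was above the level, and H6pd, the hexose 6-phosphate dehydrogenase of the endoplasmic reticulum, differed by -0.17 (SE 0.10). Among 11 genes of pyruvate entry into mitochondria the median difference was -0.01. Pdp2, a phosphatase that reactivates pyruvate dehydrogenase, differed by -0.33 (SE 0.13; limma adjusted p = 0.991), and Pcx, pyruvate carboxylase, was above the level on 2 of 4 knockout and 0 of 4 control arrays. Among 19 genes of glycogen, gluconeogenesis and hexosamine synthesis the median difference was -0.07. Of these, the glycogen branching enzyme gene Gbe1 differed by -0.31 (SE 0.09; limma adjusted p = 0.991) and G6pc3, the ubiquitous glucose 6-phosphatase, by -0.17 (SE 0.08). The groups did not overlap for either, as for 1.54% of all genes with lower knockouts.

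Of 20 measured regulators of the pathway 0 had an unadjusted p under 0.05, against 4.94% of all genes, and the median difference was 0.01. The median size of their differences, without regard to sign, was 0.13. The groups did not overlap for 1 of them, against 2.90% of all genes. It was Trp53 (p53), which differed by 0.14 (SE 0.08). The gene now named Tigar, listed as 9630033F20Rik, encodes a fructose bisphosphatase that lowers glycolytic flux and differed by 0.33 (SE 0.15; limma adjusted p = 1.00). Txnip, an inhibitor of glucose uptake, differed by -0.26 (SE 0.14). Hif1a differed by 0.16 (SE 0.11) and Myc by 0.08 (SE 0.09). Trp53, Hif1a and Myc were named after their values were seen. Of 15 HIF-1 targets outside glycolysis, 6 had a difference above 0 and 9 below, with a median of -0.03. Ankrd37 differed by -0.41 (SE 0.18; limma adjusted p = 1.00), and Adm, adrenomedullin, was above the level of absent transcripts on 3 of 4 knockout arrays and 1 of 4 control arrays.

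Markers of other cells were read beside these results, and 0 of them passed the test. All 4 mast cell and basophil markers had a difference below 0, from -1.16 for Cpa3 to -0.38 for Mcpt8. At an unadjusted p under 0.05 by limma there were 3 of 4, against 2.50% of all genes lower in knockouts. The mean of the list was 5.65 to 6.24 on control arrays and 4.99 to 5.77 on knockout arrays. The mean of 6 megakaryocyte markers was 4.20 to 4.56 in controls and 3.81 to 4.20 in knockouts. Among them Pf4 differed by -1.40, with overlap between groups, and Itga2b by -0.32. Gp9 differed by -0.06, Gp1bb by 0.01 and Itgb3 by 0.03, and the median difference of the list was -0.07. The mean of 8 mature myeloid markers was 6.09 to 6.71 in controls and 5.82 to 6.40 in knockouts. Of these, 6 had a difference below 0, while Lcn2 differed by 0.66, without overlap between groups, and Csf1r by 0.20. Over all genes, 1.36% were higher in knockouts without overlap and 1.54% lower. Of the erythroid markers, Aqp1 differed by -0.42, without overlap and with 2 of 4 knockouts at or under the level of absent transcripts, Car1 by -0.35 and Epor by 0.13. Klf1, Ppbp and Ltf lay below that level on all arrays. Below it as well lay Ms4a1 and Cd79a of 5 B cell, Cd3g, Cd4 and Klrd1 of 5 T and NK cell, and Kdr and Lum of 6 endothelial and stromal markers. The list means were 3.44 to 3.69 and 3.31 to 3.57 for B cell, 4.34 to 4.53 and 4.20 to 4.38 for T and NK cell, and 3.80 to 3.96 and 3.94 to 4.00 for endothelial and stromal markers, in controls and knockouts. The part of these cells in the differences of glycolytic genes was not tested.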

How the data were processed

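Per the submitters' processing notes, RMA and limma were used, without versions or settings; their annotation and build are not given in the sources used here. Per the labels' protocols, RNA was isolated with PicoPure and amplified before hybridisation. The deposited values are log2 signals per feature and array; RMA as usually run equalises distributions between arrays, so a shift shared by most genes would not be seen. Of 28853 features, 1494 without a symbol were left out, leaving 24213 genes. A second deposited table held the same values. Arrays have no read depth; 4 arrays per group limit the precision.

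Knockout and control were compared with limma 3.58.1 in R 4.3.3 (lmFit, eBayes) over all genes, without filter or covariates, with Benjamini-Hochberg adjustment and a threshold of 0.05. Intervals are the 95% intervals of that fit. The fit was tested on simulated data. Replicate numbers were not treated as pairs in that fit. The members and lists were chosen with earlier results of these data known. Every member is named. Values by array are given for Atg12 and for members without overlap between groups. They are also given for the 6 members of smallest p above the level of absent transcripts on at least 1 array of each group. In further lists of pathway genes the 2 genes of smallest p above that level are named. Cell type markers had no such rule, and not all of them are named. Brp44, Brp44l and Tigar were not found under those symbols. One erythroid marker and the summary of that list are not reported here.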

Additional observations from a re-analysis of the deposited data

Results flagged for a closer look

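In 3 of 70 groups of 4 arrays (34 genes and Atg12, in controls and knockouts), 1 array lay far from the other 3 by the ratio of its gap to the group's range; chance gives about 1 in 20 groups. Pdk3 read 6.59 on knockout 3, while the other knockouts read 7.18 to 7.29. Pfkfb3 read 6.33 on control 2, and the other controls 6.55 to 6.56. Pdk2 read 5.14 on control 1, and the other controls 4.65 to 4.71.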

How the results depend on the processing

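The count of the 34 genes past the adjusted threshold stayed at 0 under all 22 refits, each with 1 choice altered (smallest adjusted p of any of them 0.511, with array weights), and was 3 at an unadjusted p under 0.05. The count over all genes, 1, was 0 with arrays centred on their median, with Xist signal or with Y-linked signal as a covariate, without knockouts 3 and 4, and with the replicate number as a block, and 1195 at an unadjusted p under 0.05; with 1 array left out it was 0 to 3, the 3 without control 4 and 0 without any of the other 7. The fit with replicate number as a block called 0 of the 34 genes and left their median difference at 0.01; same-numbered arrays deviated with r of -0.10 to 0.12, and 2 of 4 controls correlated best with their own number. The median difference lay between -0.01 and 0.03 with 1 array left out, and was -0.02 without knockouts 3 and 4. Of the 34 genes, 21 kept their sign under every refit that held them, and 13 did not. Of 711 refitted values, 3 moved by more than 1 SD, all without knockouts 3 and 4 (Pfkl -0.02, Tpi1 -0.15, Slc16a3 -0.23). Isoform contrasts past the threshold stayed at 0 in the refits to which a permutation test applies. With arrays left out or with replicate number as a block, no exact p can fall under 0.05. The 0 was therefore fixed in advance there and tells nothing about stability. With covariates, array weights, other variance models and single features the permutation test was not run. With the 95th percentile of olfactory receptor genes (3.26) as the level of absent transcripts, 33 genes were above it by their mean, as with 3.20. Genes near that level, Aldoc and Eno2, are limited by signal over background.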
